A study of Mus musculus with 8 samples.

Results

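The RPRD proteins and the phosphatases and adaptors that share their target form a group of 9 genes, which were followed in a knockdown of one of them. They are the RPRD family (Rprd1b, Rprd1a and Rprd2), the CTD phosphatases and relatives Rpap2, Ssu72, Ctdp1 and Ctdspl2, and the CTD-binding adaptors Scaf4 and Scaf8. They were chosen by name, and all 9 were found among the 23420 entries of both count tables. RNA was sequenced from NIH3T3 cells, a mouse embryonic fibroblast line, after at least 1 week in puromycin. One group carried shRNA against RPRD1B (4 libraries, called RPRD1B below) and the other a scrambled shRNA (4 libraries, called scrambled). Each group holds 2 libraries in set 1 (replicates 1 and 2) and 2 in set 2 (replicates 3 and 4), which were deposited as separate tables. No label states how the sets differ, which hairpin sequences were used or whether replicates came from separate cultures. The p-values therefore reflect variation among libraries, which may be technical.

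The C-terminal domain (CTD) is a tail of repeated heptads on Polr2a, the largest subunit of RNA polymerase II, and its serines are phosphorylated and dephosphorylated as the polymerase initiates, elongates and terminates. RPRD1A, RPRD1B (also called CREPT), RPRD2, SCAF4 and SCAF8 each carry a CTD-interaction domain that binds the phosphorylated tail. In human cells RPRD1A and RPRD1B associate with the polymerase and with the phosphatase RPAP2, and RPRD1B has been studied as a promoter of cyclin D expression and proliferation.

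Rprd1b and Ctdspl2 were the 2 members whose RNA passed the test between the groups over both sets. The 250 bases before a RefSeq transcript start of each are therefore shown, read 5′ to 3′ on the plus strand of GRCm38.p6, with every CG pair in capitals. The window of Rprd1b is chr2:158028247-158028496 and that of Ctdspl2 is chr2:121955751-121956000. The Ctdspl2 window lies inside the span of the gene, which starts at 121955398. The Rprd1b window ends past the start of its gene at 158028475.
Rprd1b: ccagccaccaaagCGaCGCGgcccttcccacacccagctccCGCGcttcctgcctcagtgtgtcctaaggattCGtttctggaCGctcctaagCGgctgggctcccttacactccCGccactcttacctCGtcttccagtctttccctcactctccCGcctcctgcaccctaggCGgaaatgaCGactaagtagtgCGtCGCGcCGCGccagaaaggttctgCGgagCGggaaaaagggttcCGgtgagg
Ctdspl2: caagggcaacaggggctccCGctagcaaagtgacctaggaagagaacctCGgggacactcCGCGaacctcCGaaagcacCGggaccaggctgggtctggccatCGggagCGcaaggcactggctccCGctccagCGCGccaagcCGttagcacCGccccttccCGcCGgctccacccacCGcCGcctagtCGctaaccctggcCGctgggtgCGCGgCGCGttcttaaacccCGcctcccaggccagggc
The window of Rprd1b held 21 CG pairs and that of Ctdspl2 held 24, against a median of 6 over the 32851 RefSeq windows of this length. GC content was 62.0% for Rprd1b and 69.6% for Ctdspl2, against a median of 52.4%. Windows of 7 of the 9 members were included, 10 windows in all. Rprd1a and Ctdp1 were left out of this step, so the counts of genes below do not cover them. For 6 of these 7 genes a window had a GC content over 50% and a ratio of observed to expected CG pairs above 0.6. Rprd2 is counted among these 6 and among the genes with GGGCGG below. The bases right after its window were found in no GENCODE transcript of that gene. Of all windows, 30.8% had both, and the ratio ran from 0.714 to 1.11 over the windows of the 7 genes. Of 7 motifs searched on both strands, none of which contains another, GGGCGG was found for 4 genes (32.7% of all windows), Ctdspl2 among them, and CCAAT for 1, Ssu72 (33.9% of all windows). TATAAA (12.4% of all windows), CCGGAAG (6.91%), CACGTG (6.02%), the NRF1 motif (0.782%) and AAGATGGCG (0.606%) were in no window of these 7 genes. The shares are of single windows, while a gene was counted if any of its windows matched, and Rpap2 and Scaf4 had more than 1 window. A match or its absence describes these letters only.

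The genes lie on 7 chromosomes of mm10, with coordinates from RefSeq GRCm38.p6. Rprd1b is on chromosome 2 at 158028475 to 158078207 (plus strand), and Ctdspl2 is on the same chromosome and strand at 121955398 to 122015326. Rprd1a and Ctdp1 are both on the minus strand of chromosome 18, at 24484960 to 24530235 and 80407959 to 80478739. Rprd2 lies on chromosome 3 at 95759871 to 95819744 (minus strand), Ssu72 on chromosome 4 at 155704815 to 155733879 (plus strand) and Rpap2 on chromosome 5 at 107597373 to 107661853 (plus strand). Scaf4 lies on chromosome 16 at 90228950 to 90286140 (minus strand) and Scaf8 on chromosome 17 at 3114972 to 3198859 (plus strand).

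Depth ran from 12311442 to 23223139 counts per library, and RPRD1B replicate 4 was the deepest. The ribosomal RNA precursor Rn45s took 4.99% to 9.98% of the counts in the RPRD1B libraries and 5.63% to 7.69% in the scrambled libraries, and leaving it out before scaling changed no call reported here. Levels are counts scaled to library size (CPM) after TMM scaling, which sets the bulk of genes equal between libraries. All 7 fibroblast markers were present, with a summed level of 15920 to 16200 CPM in RPRD1B and 15970 to 16520 CPM in scrambled libraries. Epcam and Krt8 (epithelium), Emr1 (macrophage), Myog and Myod1 (muscle) and Plin1 (adipocyte) had no count in any library. Epithelial, endothelial, muscle and adipocyte marker lists each summed to at most 0.658 CPM. The macrophage and blood list reached 9.91 CPM, nearly all of it Cd68, and the neural list 1.48 CPM. In bulk RNA, fewer cells of a kind and less RNA per cell cannot be told apart.

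Rprd1b, the target of the hairpin, was lower in every RPRD1B library than in any scrambled library. Its level was 26.4, 28.0, 22.5 and 22.7 CPM in RPRD1B replicates 1 to 4, against 42.3, 44.4, 39.5 and 40.8 CPM in scrambled replicates 1 to 4. The counts behind these levels were 279 to 520 in RPRD1B and 531 to 671 in scrambled libraries. Such a separation of the 4 RPRD1B below the 4 scrambled libraries was seen in 1.74% of the 11723 genes tested, and in either direction in 3.75%. The fitted log2 fold change was -0.75 ± 0.07 (SE, edgeR quasi-likelihood test, adjusted p = 4.14e-14), so the RNA fell by 40.5% with a 95% interval from -45.7% to -34.8%. By p-value the targeted gene ranked 14 of 11723. The difference in mean log2 CPM was -0.75 by an exact permutation of labels inside each set (two-sided, p = 0.0556, the smallest that 36 assignments allow). The RNA fell by 43.8% in set 2 and by 37.1% in set 1, and the difference of -0.16 ± 0.13 on the log2 scale between the sets was not called (adjusted p = 0.784). The labels report a check of the knockdown by Western blot, and protein was not measured in these files.

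**Figure D1:**
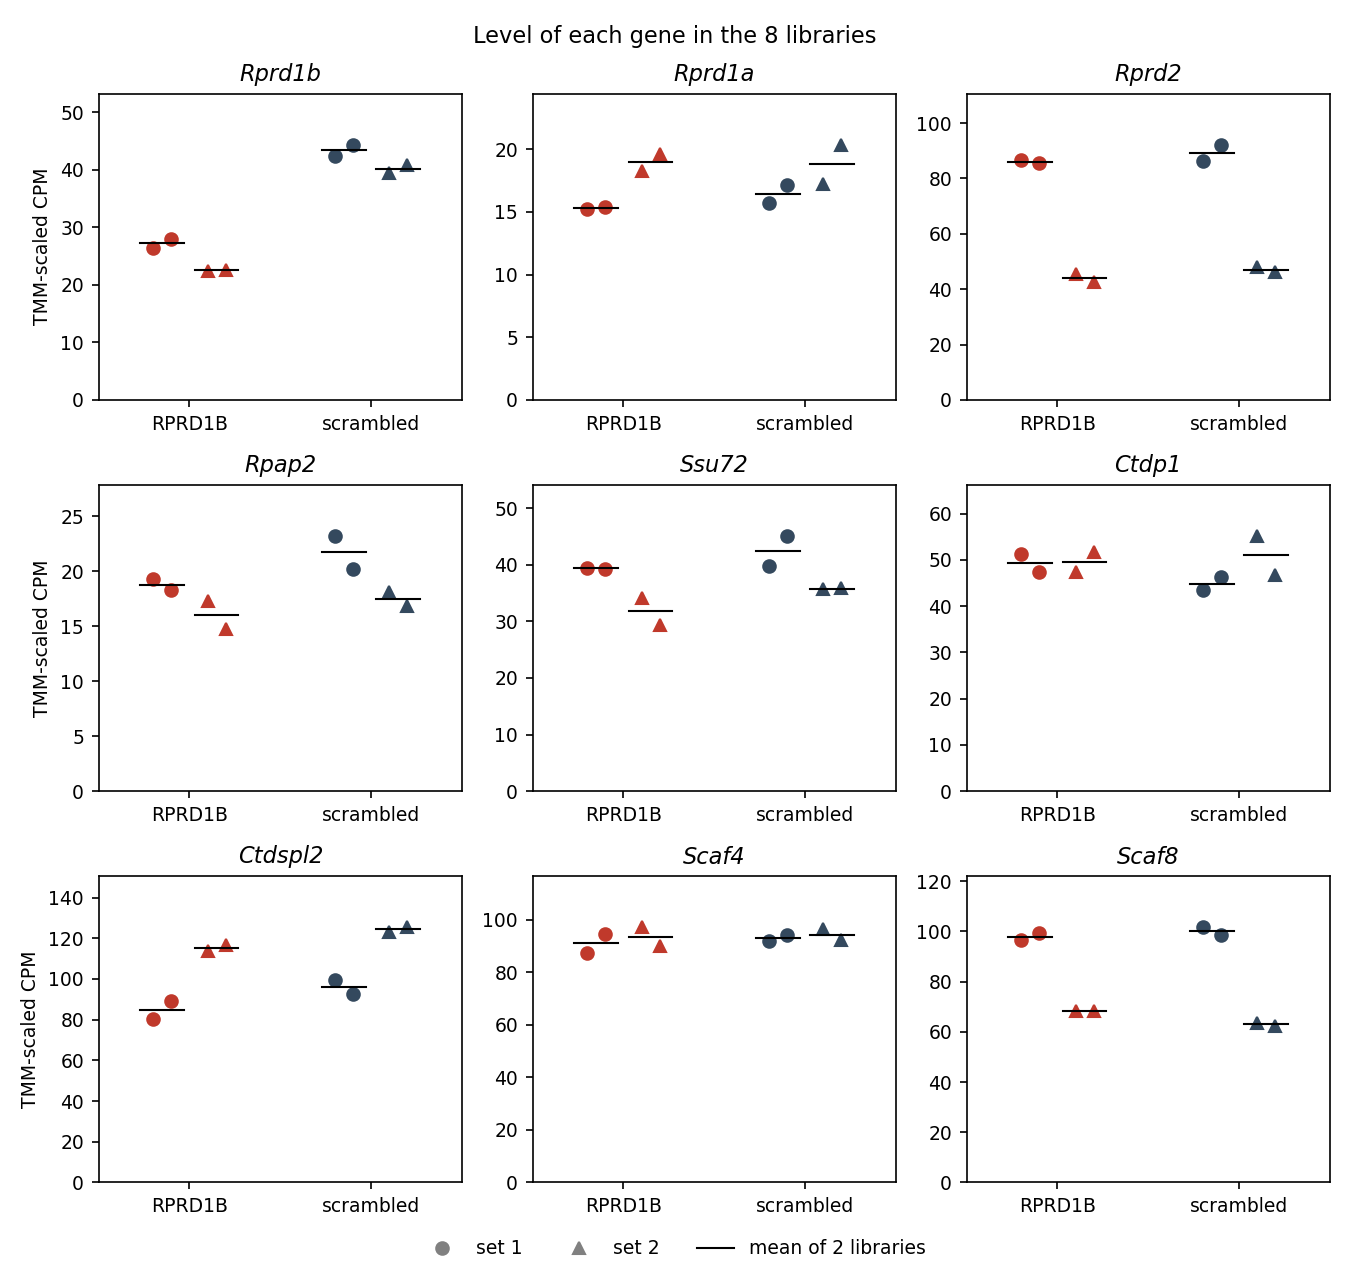
TMM-scaled CPM (y axis, from 0) of each of the 9 genes in the 4 RPRD1B and 4 scrambled libraries. Circles are set 1, triangles are set 2 and black lines are means of 2 libraries. Rprd1b separates the groups, at 22.5 to 28.0 CPM in RPRD1B and 39.5 to 44.4 CPM in scrambled libraries. Rprd2, Rpap2, Ssu72 and Scaf8 (lower in set 2) and Rprd1a and Ctdspl2 (higher in set 2) separate the sets. Of all tested genes, 56% separate the sets in either direction.

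Rprd1a, the closest relative of Rprd1b, gave no call in either direction. Its level was 15.2, 15.4, 18.3 and 19.6 CPM in RPRD1B replicates 1 to 4, against 15.7, 17.1, 17.2 and 20.4 CPM in scrambled replicates 1 to 4, and the groups overlapped. The log2 fold change was -0.03 ± 0.09 (adjusted p = 0.900), with an interval from -13.5% to 10.7% of the scrambled level. The sign was positive without scrambled replicate 2 or 4 (0.0027 and 0.0070). Rprd2, a longer family member with the same kind of binding domain, stood at 86.5, 85.6, 45.5 and 42.5 CPM in RPRD1B replicates 1 to 4, against 86.2, 92.2, 47.9 and 46.2 CPM in scrambled replicates 1 to 4. Within each set the RPRD1B values of Rprd2 were near or below the scrambled ones, with an overlap in set 1. Its log2 fold change of -0.07 ± 0.05 did not pass (adjusted p = 0.457), with an interval from -11.5% to 1.85%.

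Rprd1b made up a smaller share of the family's reads in RPRD1B libraries. Of the reads counted to the 3 RPRD genes, Rprd1b took 20.6%, 21.7%, 26.1% and 26.7% in RPRD1B replicates 1 to 4, against 29.4%, 28.9%, 37.7% and 38.0% in scrambled replicates 1 to 4. The groups did not overlap within either set, and the share does not depend on how libraries are scaled. The share differed by -9.72 percentage points (exact two-sided permutation inside each set, p = 0.0556, the smallest that 36 assignments allow). For each Rprd1a count there were 1.73, 1.82, 1.23 and 1.16 Rprd1b counts in RPRD1B replicates 1 to 4, against 2.70, 2.59, 2.29 and 2.00 in scrambled replicates 1 to 4. Summed over the 3 genes per kilobase of exon, the level was 17.1 and 17.3 CPM per kb in RPRD1B and 19.9 and 21.2 in scrambled libraries of set 1. In set 2 the sum was 12.8 and 12.9 CPM per kb in RPRD1B and 15.8 and 16.5 in scrambled libraries. The summed family level was thus lower in RPRD1B libraries of each set, and lower in set 2 than in set 1 in each group. This sum includes Rprd1b, the target of the hairpin. Rprd1b averaged 4.68 CPM per kb in RPRD1B and 7.45 in scrambled libraries of set 1. In set 2 it averaged 3.88 in RPRD1B and 6.90 in scrambled libraries. Rprd1a and Rprd2 gave no call between the groups.

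**Figure D2:**
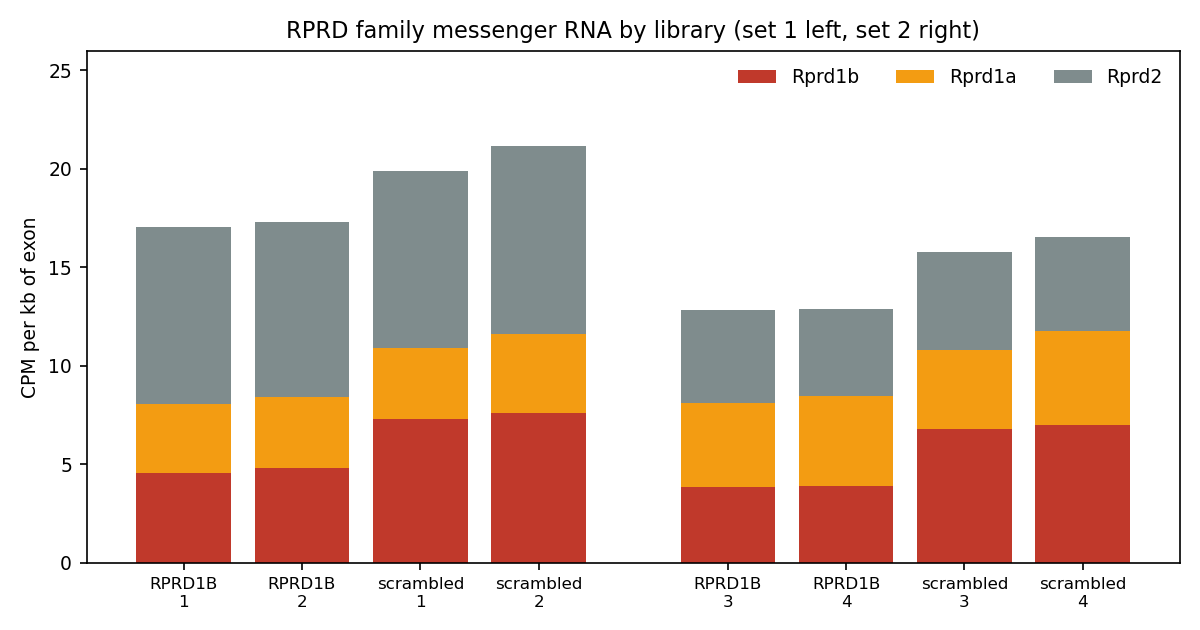
Level of Rprd1b, Rprd1a and Rprd2 in CPM per kb of exon (stacked bars, y axis from 0), 1 bar per library with the replicate number under the group. RPRD1B bars reach 17.1 and 17.3 in set 1 and 12.8 and 12.9 in set 2, under the scrambled bars of the same set, and the Rprd2 part is smaller in set 2.

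Among the CTD phosphatases, Ctdspl2 was the member other than the target that passed the test. Ctdspl2 codes for a small phosphatase-like protein of the CTD phosphatase superfamily. Its level was 80.3, 89.0, 114 and 117 CPM in RPRD1B replicates 1 to 4, against 99.5, 92.4, 123 and 125 CPM in scrambled replicates 1 to 4. Within each set both RPRD1B libraries lay below both scrambled libraries, while over the sets the groups overlapped. It fell by 9.32%, a log2 fold change of -0.14 ± 0.04 (adjusted p = 0.0311). The call was lost without scrambled replicate 1 or 4 or RPRD1B replicate 1 or 3 (adjusted p = 0.0710 to 0.184), and with DESeq2 (adjusted p = 0.0562). Fitted alone, neither set gave a call: the log2 fold change was -0.11 ± 0.05 in set 2 with adjusted p = 0.287, and -0.18 ± 0.07 in set 1 with adjusted p = 0.0948. Set 1 without scrambled replicate 2 gave a call (adjusted p = 0.0404).

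Rpap2 and Ssu72 had values on the same side as Ctdspl2 but did not pass. Rpap2, which removes phosphate from the CTD and helps bring the polymerase to the nucleus, stood at 19.2, 18.3, 17.3 and 14.8 CPM in RPRD1B replicates 1 to 4, against 23.2, 20.2, 18.1 and 16.8 CPM in scrambled replicates 1 to 4. In set 2 the groups overlapped, since RPRD1B replicate 3 was above scrambled replicate 4. The log2 fold change was -0.18 ± 0.09, with an unadjusted p of 0.0464 and an adjusted p of 0.246 in edgeR. Ssu72, a CTD phosphatase that works with symplekin in 3′ end processing, stood at 39.4, 39.3, 34.2 and 29.4 CPM in RPRD1B replicates 1 to 4, against 39.8, 45.1, 35.7 and 35.9 CPM in scrambled replicates 1 to 4. Both RPRD1B libraries lay below both scrambled libraries in each set, though RPRD1B replicate 1 and scrambled replicate 1 were only 39.4 against 39.8 CPM. The log2 fold change was -0.15 ± 0.06, with an unadjusted p of 0.0251 and an adjusted p of 0.167 in edgeR.

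Ctdp1, the CTD phosphatase that recycles the polymerase after termination, stood at 51.2, 47.3, 47.4 and 51.6 CPM in RPRD1B replicates 1 to 4, against 43.4, 46.4, 55.2 and 46.7 CPM in scrambled replicates 1 to 4. The RPRD1B libraries were above the scrambled ones in set 1 and among them in set 2. Set 1 fitted alone gave no call for Ctdp1 (edgeR adjusted p = 0.417). The share of all genes that separate so within 1 set was not counted. The log2 fold change was 0.04 ± 0.06 over both sets (adjusted p = 0.768), -0.04 ± 0.08 in set 2 and 0.14 ± 0.08 in set 1, and the difference of -0.17 ± 0.11 between the sets did not pass (adjusted p = 0.704).

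The adaptors Scaf4 and Scaf8, which in human cells bind the CTD and nascent RNA and limit the use of early polyadenylation sites, gave no call. Scaf4 stood at 87.6, 94.7, 97.3 and 89.9 CPM in RPRD1B replicates 1 to 4, against 91.8, 94.3, 96.4 and 92.4 CPM in scrambled replicates 1 to 4. This was the member with the smallest absolute log2 fold change, -0.02 ± 0.04 (adjusted p = 0.831), with an interval from -7.63% to 4.62%. Scaf8 stood at 96.5, 99.4, 68.5 and 68.1 CPM in RPRD1B replicates 1 to 4, against 102, 98.7, 63.7 and 62.2 CPM in scrambled replicates 1 to 4. In set 1 the groups overlapped, and in set 2 both RPRD1B libraries were above both scrambled libraries. Set 2 fitted alone gave no call for Scaf8 (0.11 ± 0.07, edgeR adjusted p = 0.443). How many of all genes separate so within 1 set was not counted. The log2 fold change of Scaf8 was 0.04 ± 0.05 over both sets (adjusted p = 0.739), and the difference of 0.15 ± 0.09 between the sets did not pass (adjusted p = 0.672).

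Over both sets, 2 of the 9 members fell and none rose, where 3.61% of all 11723 tested genes fell, 3.97% rose and 7.57% changed in either direction. Rprd1b is one of the 2 as the target of the hairpin, which leaves 1 of 8. Unadjusted p-values were under 0.05 for 4 of the 9, the target among them, as for 19.5% of all tested genes. The median log2 fold change of the 8 others was -0.05, against 0.00 over all tested genes, and the median absolute value was 0.06 against 0.08. In 3 members, Rprd1b, Ssu72 and Ctdspl2, both RPRD1B libraries lay below both scrambled libraries in each set, as in 8.18% of all genes. No member was higher in this way in both sets, as 8.23% of all genes were, and 16.4% separated in either direction. Within set 2 alone Rprd1b was the only member called, where 2.64% of all genes fell, 2.55% rose and 5.19% did either. Within set 1 alone it was again the only one, where 2.18% of all genes fell, 2.68% rose and 4.86% did either. No member passed the test of the difference between the sets, at adjusted p-values from 0.672 to 0.987 in edgeR, where 0.247% of all genes passed (0.171% higher and 0.0768% lower). At an unadjusted p under 0.05 the count of members was also 0, where 8.64% of all genes passed. DESeq2 gave an adjusted p to 2 of the 9 members, Ctdspl2 and Scaf4, and called neither (0.125% of the 2405 genes it adjusted), while the other 7 had none. The authors' deposited tables list, besides Rprd1b, no member with a q-value under 0.05, the smallest being 0.391 for Ctdspl2 in set 1. A q-value under 0.05 was listed for 2.04% of the entries of the authors' deposited table of set 2 and 2.47% of that of set 1.

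**Figure D3:**
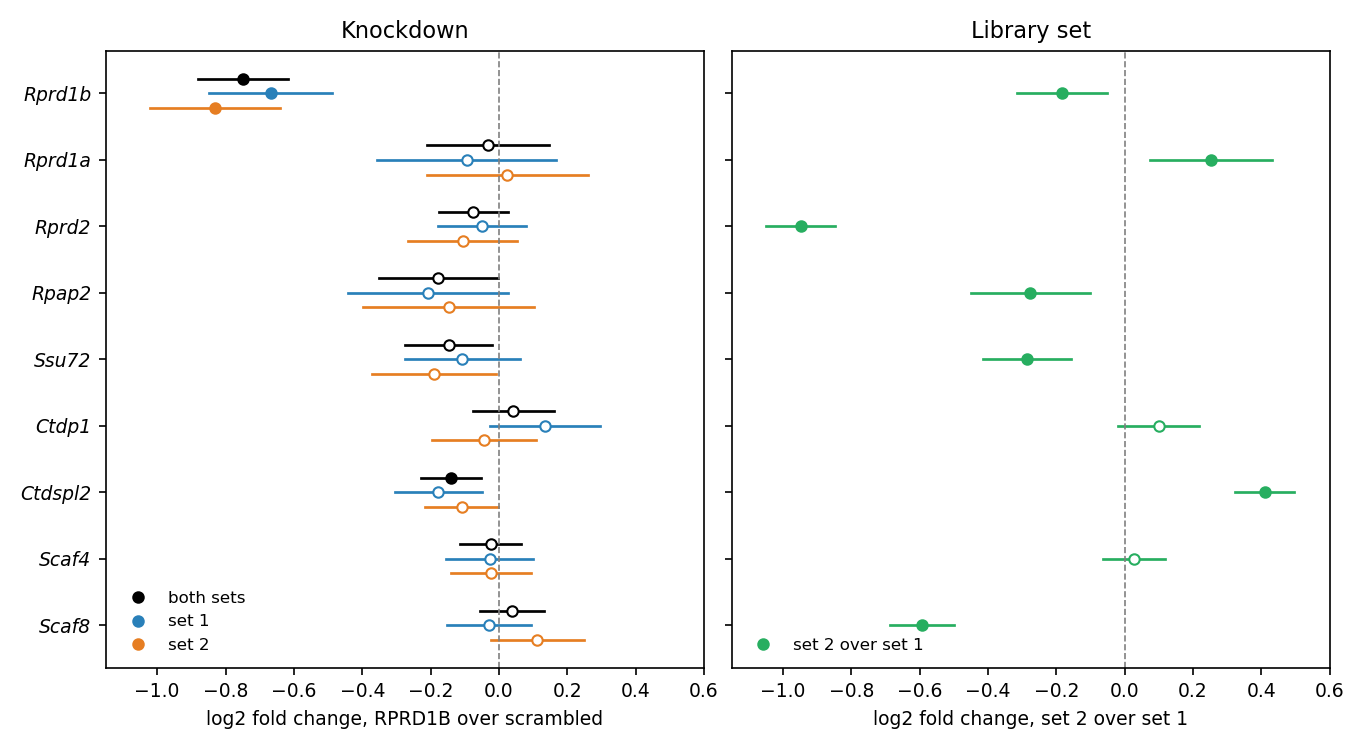
Log2 fold change (x axis) with its 95% interval for each gene, for RPRD1B over scrambled on the left (both sets, set 1 and set 2 fitted alone) and for set 2 over set 1 on the right. Filled points passed an adjusted p of 0.05; on the left these are Rprd1b in all 3 fits and Ctdspl2 over both sets, and on the right all but Ctdp1 and Scaf4.

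Several members differed more between the sets than between the groups. Rprd2 differed most. In set 2 it averaged 45.5 ± 2.22 CPM, against 87.7 ± 3.07 CPM in set 1 (SD, n = 4 libraries each, both groups together). It fell by 48.2%, a log2 fold change of -0.95 ± 0.05 for set 2 over set 1 (adjusted p = 1.38e-26 in edgeR). Scaf8 averaged 65.6 ± 3.14 CPM in set 2 and 99.1 ± 2.15 CPM in set 1, a log2 fold change of -0.59 ± 0.05 (adjusted p = 2.76e-18 in edgeR). Ctdspl2 went the other way, with 120 ± 5.44 CPM in set 2 and 90.3 ± 7.97 CPM in set 1, a log2 fold change of 0.41 ± 0.04 (adjusted p = 5.76e-13 in edgeR). Values of the sets did not overlap in these 3 genes. In all, Rprd2, Rpap2, Ssu72 and Scaf8 were lower in every library of set 2, as 27.9% of all genes were, and Rprd1a and Ctdspl2 higher, as 28.1% were (56% in either direction).

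Smaller differences between sets were called for Ssu72 (-0.29 ± 0.06), Rpap2 (-0.28 ± 0.09), Rprd1a (0.25 ± 0.09) and Rprd1b (-0.18 ± 0.07), with adjusted p-values in edgeR from 7.97e-05 for Ssu72 to 0.0122 for Rprd1b. The call of Rprd1b was lost without RPRD1B replicate 2 (adjusted p = 0.0600) and that of Rprd1a without RPRD1B replicate 4 (adjusted p = 0.0550). Ctdp1 (0.10 ± 0.06, adjusted p = 0.132) and Scaf4 (0.03 ± 0.05, adjusted p = 0.605) were not called. In all, 2 of 9 members were higher and 5 lower in set 2, where 33% of all tested genes were higher and 32.9% lower, so 65.9% were called either way. The absolute log2 fold change was larger between sets than between groups for 8 of the 9, all but Rprd1b, as it was for 81.3% of all tested genes. The median absolute value between sets was 0.28 over the 8 members other than Rprd1b, and 0.31 over all genes. The labels give no variable that differs between the sets, so what lies behind the difference was not tested.

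Per kilobase of exon, with lengths from GENCODE M21 for the protein-coding transcripts of each gene, Ssu72, Ctdspl2, Ctdp1 and the adaptors had higher mean levels than the RPRD family, while Rpap2 did not. Ssu72 averaged 22.01 ± 2.97 CPM per kb in RPRD1B and 24.2 ± 2.74 in scrambled libraries (SD, n = 4 each, here and below). Ctdspl2 averaged 19.4 ± 3.51 CPM per kb in RPRD1B and 21.4 ± 3.23 in scrambled libraries, and Scaf4 20.75 ± 0.991 in RPRD1B and 21.1 ± 0.466 in scrambled libraries. Scaf8 averaged 16.8 ± 3.47 CPM per kb in RPRD1B and 16.5 ± 4.36 in scrambled libraries, and Ctdp1 12.6 ± 0.607 in RPRD1B and 12.3 ± 1.297 in scrambled libraries. The RPRD genes and Rpap2 lay below all of these means. Rprd1b averaged 4.28 ± 0.475 CPM per kb in RPRD1B and 7.18 ± 0.364 in scrambled libraries. Rprd2 averaged 6.75 ± 2.53 CPM per kb in RPRD1B and 7.07 ± 2.54 in scrambled libraries. Rpap2 averaged 4.32 ± 0.478 CPM per kb in RPRD1B and 4.87 ± 0.692 in scrambled libraries, and Rprd1a 3.99 ± 0.504 in RPRD1B and 4.09 ± 0.460 in scrambled libraries.

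In scrambled cells the order of means over both sets ran from Ssu72 over Ctdspl2, Scaf4, Scaf8, Ctdp1, Rprd1b, Rprd2 and Rpap2 to Rprd1a. Within the sets the order differed. In scrambled libraries Rprd1b averaged 6.90 and Rprd2 4.88 CPM per kb in set 2, against 7.45 and 9.26 in set 1. Ctdspl2 averaged 24.13 and Ssu72 22.15 in set 2, against 18.62 and 26.29 in set 1. The SDs and ranges of 4 libraries include the difference between the sets. These ranges overlapped between neighbours in the order over both sets, with 2 exceptions. They were Scaf4 and Scaf8 (20.63 to 21.67 against 12.58 to 20.56 CPM per kb) and Ctdp1 and Rprd1b (11.1 to 14.1 against 6.78 to 7.63). In RPRD1B cells over both sets, Rprd1b ran from 3.86 to 4.82 CPM per kb. This overlapped the ranges of Rprd1a (3.55 to 4.56) and Rpap2 (3.67 to 4.78). Within the sets Rprd1b and Rprd1a did not overlap. Rprd1b was above Rprd1a in set 1 (4.54 to 4.82 against 3.55 to 3.58). It was below Rprd1a in set 2 (3.86 to 3.90 against 4.25 to 4.56). Rprd1b and Rpap2 overlapped in each set. The annotation used for the counts is not given, so levels compared between genes rest on the GENCODE lengths, from 1616 bases for Ssu72 to 9633 for Rprd2.

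**Figure D4:**
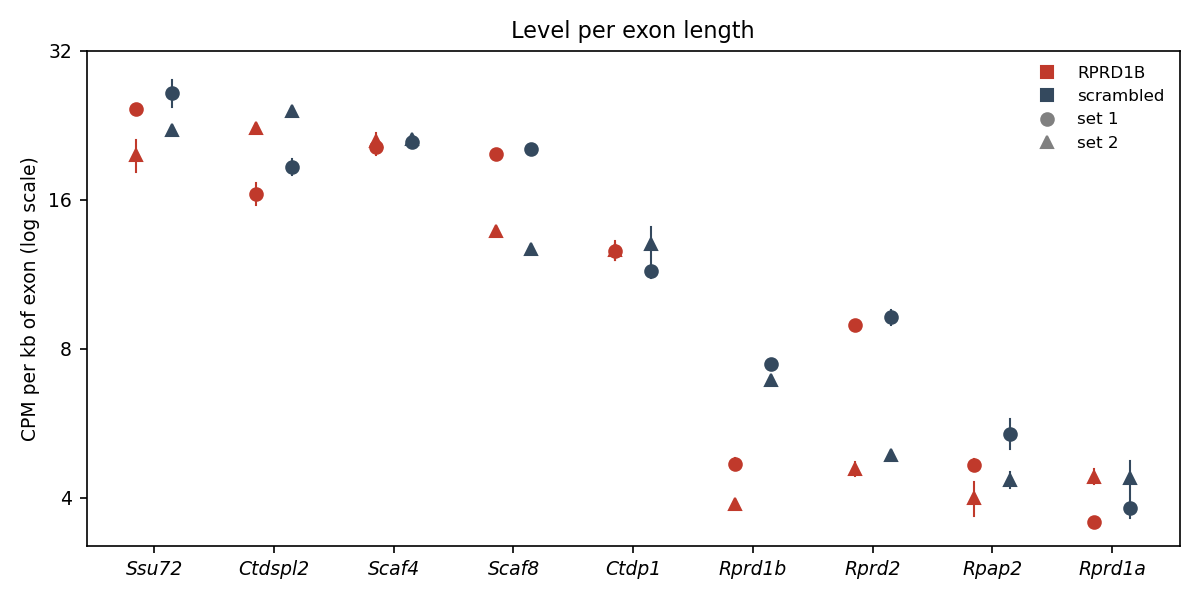
Level of each gene in CPM per kb of exon (y axis, log scale), ordered by the scrambled mean over both sets. Points are means of 2 libraries of a group in a set and bars their range. In RPRD1B libraries Rprd1b lies above Rprd1a in set 1, at 4.54 to 4.82 against 3.55 to 3.58. In set 2 it lies below Rprd1a, at 3.86 to 3.90 against 4.25 to 4.56. Rprd1b overlaps the range of Rpap2 in each set.

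No word of 21 bases in protein-coding transcripts of Rprd1b occurred in a transcript of Rprd1a or Rprd2, on either strand. Words of 75 bases, the read length, that occurred in transcripts of any other gene made up 5.15% of those of Rprd1b, 7.23% of Ctdp1, 6.28% of Scaf8, 3.31% of Rpap2 and 0.345% of Ctdspl2. For Ssu72 they were 355 of 1542 words. Rprd1a, Rprd2 and Scaf4 had none. For Rprd1b, 300 of its 303 shared words lay in Tgm2, a gene on the opposite strand that overlaps 370 exonic bases of the longest GENCODE form. The library kit is not described as stranded, so reads of such antisense partners cannot be told apart there. Tgm2 stood at 7.20 CPM in RPRD1B and 7.86 CPM in scrambled libraries, a log2 fold change of -0.12 ± 0.13 (adjusted p = 0.686), under the level of Rprd1b. For Ssu72 and Ctdp1 the levels are uncertain, since antisense transcripts that are no entries of the count tables overlap 407 exonic bases of Ssu72 and 351 of Ctdp1. Glmn, antisense to 276 exonic bases of Rpap2, stood at 19.7 CPM in RPRD1B and 20.2 CPM in scrambled libraries (adjusted p = 0.841).

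The spread between replicates differed among the members. The SD of log2 CPM within groups and sets ran from 0.02 for Scaf8 and 0.04 for Rprd1b to 0.12 for Rpap2, which had a mean of 278 counts. Rprd1a had a mean of 267 counts and an SD of 0.10. Counting alone gives an SD of about 0.06 at the mean count of Rprd1b and 0.09 at that of Rpap2. Ctdp1 spread most for its level, with an SD of 0.11 where counting alone gives 0.05, at percentile 88.2 among genes of like mean count. Ssu72 was at percentile 70.4 and Ctdspl2 at 68.2, while Rprd1b was at 7.2 and Scaf8 at 4.6.

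Genes that act on the CTD or on the polymerase outside these 9 were compared through 5 lists. The counts of calls below are to be read beside the shares over all 11723 tested genes. Of these, 3.97% rose, 3.61% fell and 7.57% were called either way. Of 11 other CTD-binding, termination and 3′ cleavage factors, 1 rose and none fell. This was Sympk, the symplekin scaffold with which Ssu72 works, at 63.7 ± 5.44 CPM in RPRD1B and 54.5 ± 3.94 CPM in scrambled libraries (SD, n = 4 each), a log2 fold change of 0.22 ± 0.05 (adjusted p = 0.00278 in edgeR). Fitted alone, Sympk was called in set 2 (0.22, adjusted p = 0.0409) and not in set 1 (0.22, adjusted p = 0.0802). The histone methyltransferase Setd2 (0.04 ± 0.04) did not pass. The median of the list was 0.03, against 0.00 over all tested genes.

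None of 8 other CTD phosphatases and relatives passed in edgeR. The 3 with the smallest p were Ctdsp2, a small CTD phosphatase (0.10 ± 0.04, adjusted p = 0.0719), Ppp1ca, a catalytic subunit of protein phosphatase 1 (0.08 ± 0.03, adjusted p = 0.105), and Ublcp1 (-0.17 ± 0.07, adjusted p = 0.124). Without RPRD1B replicate 3 Ctdsp2 passed (0.13, adjusted p = 0.0314). Of 15 CTD kinases and cyclins, 1 fell and none rose. This was Mnat1, the assembly factor of the kinase of the initiation factor TFIIH, at 50.5 ± 3.85 CPM in RPRD1B and 57.3 ± 7.20 CPM in scrambled libraries (SD, n = 4 each), a log2 fold change of -0.19 ± 0.05 (adjusted p = 0.0217 in edgeR). It was called in set 2 alone (-0.27, adjusted p = 0.0102) and not in set 1 alone (-0.10, adjusted p = 0.589). Over both sets its call was lost with DESeq2 (adjusted p = 0.0514) and without scrambled replicate 3 or 4 or RPRD1B replicate 4 (adjusted p = 0.0613 to 0.184). The Mediator kinase Cdk8 (-0.10 ± 0.04, adjusted p = 0.127) and Mapk3 (0.12 ± 0.05, adjusted p = 0.160) did not pass.

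None of 13 subunits of RNA polymerase II passed in edgeR, and the median was 0.05. Polr2a, which carries the CTD, stood at 141 ± 16.03 CPM in RPRD1B and 150 ± 12.8 CPM in scrambled libraries (SD, n = 4 each), a log2 fold change of -0.09 ± 0.04 with an unadjusted p of 0.0299 and an adjusted p of 0.187. Polr2i (0.22 ± 0.12) and Polr2j (0.11 ± 0.07) followed by p. None of 10 polymerase assembly and import factors passed either, with Rpap3 (-0.16 ± 0.07, adjusted p = 0.142), Uri1 (-0.07 ± 0.05) and Gpn1 (0.09 ± 0.08) first by p and a median of -0.02.

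**Figure D5:**
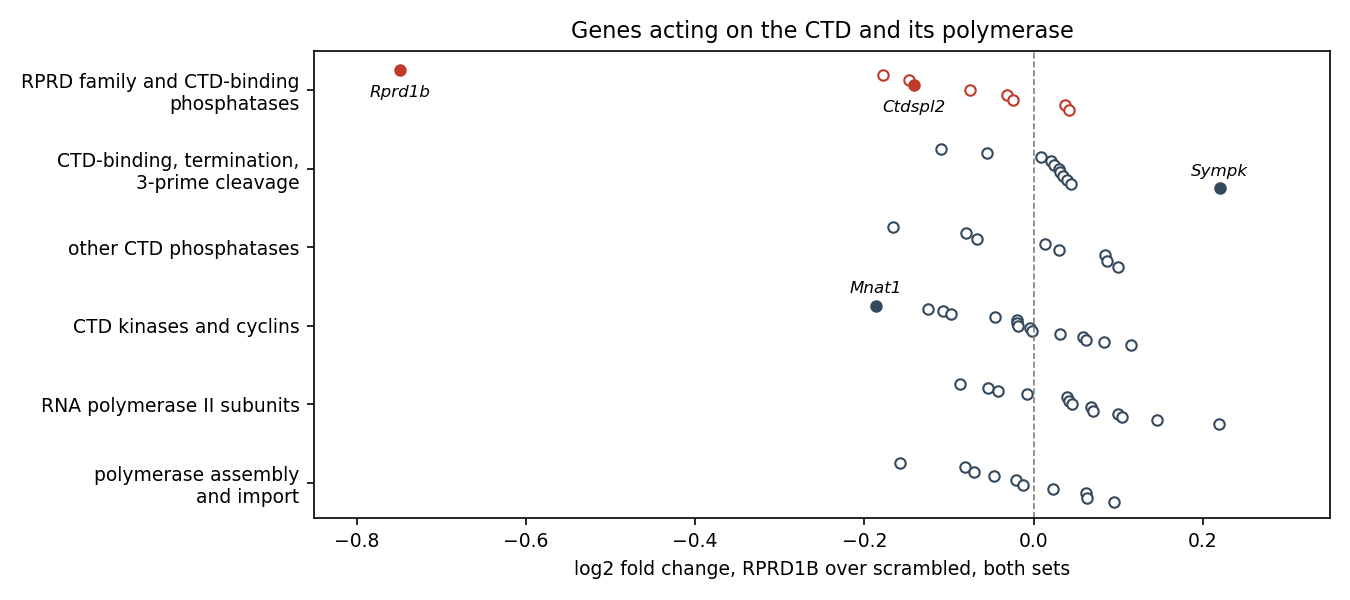
Log2 fold change of RPRD1B over scrambled over both sets (x axis) for the 9 members (red) and the 5 lists (dark), 1 point per gene, sorted within each list. Filled and named points passed an adjusted p of 0.05, and Rprd1b at -0.75 lies apart from all others, which run from -0.19 to 0.22.

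By likeness of pattern, the genes closest to Rprd1b were Kdm5d, Adam12, Ncam1, Reck and Cdh11. Pearson's r with Rprd1b was 0.996 for Kdm5d, 0.992 for Adam12, 0.991 for Ncam1, 0.989 for Reck and 0.988 for Cdh11. It was computed on log2 CPM, less the mean of each set, over the 8 libraries and 10163 genes whose mean count reached 50, all from the same 8 libraries. Ncam1, a neural cell adhesion molecule, stood at 94.7 CPM in RPRD1B and 140 CPM in scrambled libraries. The metalloproteinase Adam12 stood at 27.8 CPM in RPRD1B and 42.3 CPM in scrambled libraries. Log2 fold changes of these 5 ran from -0.60 for Adam12 to -0.33 for Cdh11, and are given as a description, since the genes were picked on this pattern. Among the members, Ctdspl2 was the most like Rprd1b (r = 0.807, rank 589), then Ssu72 (0.726), Rprd2 (0.709) and Rpap2 (0.636). The value of r was below 0 for Scaf8 (-0.538) and Ctdp1 (-0.232), and none of these correlations was tested.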

How the data were processed

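RNA was made into libraries from random-primed cDNA and read as paired ends of 75 bases, per the labels' protocols. The deposited values are counts per gene for the 8 libraries, taken as raw because they are whole numbers with unequal totals. The build is mm10, per the submitters' processing notes. For the aligner, counter and annotation, the sources used here name none. The 23420 entries are the same in both sets, 27 of them bear dates in place of names, and 0 columns of samples were left out. Per the file headers, the authors' comparisons give a signal (mean count), a log2 fold change with its standard error and a q-value. They were set beside the results and entered no test.

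edgeR 4.0.16 (R 4.3.3) gave the tests, a robust two-sided quasi-likelihood F test on TMM-scaled counts of every gene averaging 10 counts or more. Calls needed an adjusted p (Benjamini-Hochberg, all tested genes) below 0.05. Set and group were terms of the 8-library model, each set was also fitted with group only, and an interaction term compared the sets. The SE is the size of the log2 fold change divided by the square root of F. The code was tested on simulated counts. Each library was also left out, and DESeq2 1.42.0, other filters and scalings, a replicate block and a fit without the set were tried. Leaving out Rn45s was chosen after seeing the data. Intervals and floors cover counting error or the spread of libraries only.

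The members and lists were chosen with earlier results of these data known. Named genes are the 9 members, the 3 genes with the smallest p-values in each list, which include all its calls (1 such gene is not reported here), and the 5 genes most like Rprd1b. Tgm2 and Glmn were named for their overlap. Emr1 is the name in the tables for the marker Adgre1. Promoter windows come from RefSeq GRCm38.p6 and exon lengths and transcripts from GENCODE M21.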

Additional observations from a re-analysis of the deposited data

How the results depend on the processing

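Over both sets Rprd1b was called under all 15 alternatives, at -0.79 to -0.73 on the log2 scale. Its adjusted p was highest, 0.0492, in the fit without the set term, where 18 genes in all were called and neither Ctdspl2 (adjusted p = 0.999898), Sympk nor Mnat1 was. DESeq2 called 177 genes within set 2, 143 within set 1 and 3 for the difference between sets, which had 50 calls with no filter; for that difference it gave 7 of the 9 members no adjusted p. Leaving out a library gave 625 to 829 calls over both sets, 273 to 355 within set 2, 113 to 571 within set 1 (113 without RPRD1B replicate 1, 145 without RPRD1B replicate 2) and 7 to 53 for the difference. Some members without a call changed sign when a library was left out. Their log2 fold changes then ran over both sets from -0.097 to 0.0070 for Rprd1a. In set 2 they ran from -0.099 to 0.14 for Rprd1a, -0.15 to 0.089 for Ctdp1 and -0.072 to 0.039 for Scaf4, and in set 1 from -0.10 to 0.00027 for Rprd2 and -0.089 to 0.028 for Scaf4. For the difference between sets they ran from -0.041 to 0.19 for Rpap2, -0.0044 to 0.24 for Rprd1a, -0.10 to 0.0032 for Rprd2, -0.044 to 0.072 for Scaf4 and -0.17 to 0.043 for Ssu72. The causes were not tested.

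Shared replicate numbers gave no sign of pairing, since same-numbered libraries had deviations with a correlation over genes of -0.0450 in set 2 and 0.0208 in set 1. With the replicate block 846 genes were called over both sets, 509 in set 2, 655 in set 1 and 39 for the difference, and Rprd1b (-0.75) and Ctdspl2 (-0.14, adjusted p = 0.0340) kept their calls over both sets. The exact permutation within pairs gave p = 0.125, the smallest for 4 pairs, for the level (-0.75) and the share (-9.72 points) of Rprd1b. A count of 0 allows up to 0.129 to 0.244 CPM at these depths.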
